A study of Mus musculus with 2 samples.

Results

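The transcription factors Cebpa, Cebpb, Cebpd, Cebpe, Gfi1 and Zbtb7a were followed in 2 single-cell RNA libraries of mouse myeloid-derived suppressor cells (MDSC). The 6 genes were taken as a given list, by symbol, out of 32285 genes in the files, and all 6 were found and detected in both libraries. MDSC were grown for 4 days from bone marrow of C57BL/6 females aged 10 weeks, with no further genetic alteration given, in GM-CSF and IL-6 at 50 ng/mL each. One culture condition held dabrafenib (DAB, a BRAF kinase inhibitor) at 1.5 µM and the other an equal volume of its solvent, DMSO. The study asked how dabrafenib alters MDSC differentiation, and 1 library was made per condition from an unstated number of mice. The spread between replicates is therefore unknown, no test between the conditions was possible, and all intervals are exact 95% intervals that cover counting error only.

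C/EBP proteins are basic leucine zipper factors that bind DNA as dimers and drive successive steps of myeloid development. C/EBPα opens the granulocyte and monocyte program in progenitors, C/EBPε is needed for the secondary granules of maturing neutrophils and for eosinophils, and C/EBPβ and C/EBPδ serve emergency granulopoiesis and inflammatory gene expression. GFI1 is a zinc finger repressor that favors the granulocyte over the monocyte fate, and ZBTB7A is a zinc finger factor with broad roles in blood cell development and in the control of glycolytic genes.

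The unit throughout was the unique molecular identifier (UMI, 1 captured RNA molecule), added up within a library, class or cluster and scaled to counts per 1000000 UMIs of the same cells (CPM). After filtering, 9023 DMSO cells with 91884994 UMIs and 10460 DAB cells with 138984728 UMIs were analyzed, and the median cell held 7472 and 9366.5 UMIs. The 2 libraries shared 152 cell barcodes. Clustering without the 6 factors gave 30 clusters, lettered A to AD, of which 16 could be named from marker genes as 11 classes ("X-like"). The other 14 clusters, with 41.4% of DMSO and 50.3% of DAB cells, remained unnamed. The suppressor cell label covers mixed cells, since B cell-like and basophil or mast cell-like classes were also present. A log2 ratio of DAB over DMSO was called higher or lower where it reached 0.5 in size with an interval that left out 0. Over all cells a gene also needed 200 UMIs, and within a class or cluster 20 UMIs summed over both libraries and 50 cells in each. Among 12116 genes, 13.3% were higher and 14.7% lower in DAB by this rule over all cells, and the median log2 ratio of all genes was -0.01.

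Gene positions are given on GRCm38. Cebpa lies on chromosome 7 (35119293 to 35121928, plus strand), Cebpb on chromosome 2 (167688915 to 167690418, plus strand, a single exon) and Cebpd on chromosome 16 (15887286 to 15891031, plus strand). Cebpe lies on chromosome 14 (54710360 to 54712174, minus strand, 2 exons), Gfi1 on chromosome 5 (107716657 to 107726036, minus strand) and Zbtb7a on chromosome 10 (81135220 to 81152995, plus strand). Tmem189 overlaps Cebpb and Spidr overlaps Cebpd on the opposite strand, as do the noncoding Gm45091 for Cebpa and A430072P03Rik for Gfi1. Cell Ranger was run with its chemistry setting for this 5′ kit, which assigns reads by strand. Cebpe and Zbtb7a overlap no other gene.

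RefSeq promoter sequences (GRCm38.p6) were matched for 4 of the 6 factors, Cebpa, Cebpb, Gfi1 and Zbtb7a. The 120 bases before the start of Cebpa (chr7:35119173-35119292, plus strand) and of Cebpb (chr2:167688795-167688914, plus strand) are shown because these 2 family members had their highest levels in different classes, Cebpa in basophil or mast cell-like cells and Cebpb in the chemokine-high granulocyte-like (DMSO) and mature PMN-like (DAB) classes. Capitals mark matches, on either strand, to the TATA box TATAAA and to TGACG, the core of the element that CREB and ATF factors bind.

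Cebpa: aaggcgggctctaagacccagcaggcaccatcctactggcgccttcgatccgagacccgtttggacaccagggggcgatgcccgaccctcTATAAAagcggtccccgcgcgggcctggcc

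Cebpb: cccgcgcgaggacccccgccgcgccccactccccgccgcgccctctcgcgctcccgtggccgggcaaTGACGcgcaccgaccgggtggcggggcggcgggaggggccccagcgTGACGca

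The Cebpa stretch held 1 TATAAA, beginning 30 bases before the start, and no TGACG. The Cebpb stretch held 2 matches to TGACG, beginning 53 and 7 bases before the start, and no TATAAA. Of 32851 mouse promoter windows of these 120 bases, 11.7% held TGACG and 6.34% held TATAAA. Both motifs were chosen after these sequences had been seen. GC made up 66.7% of the Cebpa and 83.3% of the Cebpb stretch. In the 300 bases around the starts (250 before, 50 after), the C/EBP palindrome TTGCGCAA, the C/EBP-ATF element TGATGNAA and the GFI1 core AAATCA, on either strand, had no match in any of the 5 windows of the 4 factors (Gfi1 has 2). These occurred in 0.183%, 3.97% and 13.997% of all windows of that length. No match says only that these letters are not in the window.

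Over all cells Cebpe was the 1 factor of the 6 that passed the rule, against 13.3% of all genes in this direction. Its 4187 DMSO UMIs gave 45.6 CPM (44.2 to 47.0) and its 10686 DAB UMIs gave 76.9 CPM (75.4 to 78.4), a 1.69-fold higher level (log2 ratio 0.75, 0.70 to 0.81). The other 5 factors stayed within the rule. Gfi1 was sparse at 3.03 CPM (278 UMIs) in DMSO and 4.07 CPM (566 UMIs) in DAB (log2 ratio 0.43, 0.22 to 0.64). Zbtb7a gave 66.9 and 78.7 CPM (0.23, 0.19 to 0.28), and Cebpd gave 79.3 and 85.7 CPM (0.11, 0.07 to 0.16). Cebpa gave 19.2 CPM in DMSO and 16.7 CPM in DAB (-0.21, -0.30 to -0.12). Cebpb, with 104838 and 127087 UMIs, gave 1141 CPM in DMSO and 914 CPM in DAB (-0.32, -0.33 to -0.31). All 6 intervals left out 0, so these differences exceed counting error, while the spread between cultures is not known. In bulk sums of this kind, a different mix of cells and a different level per cell cannot be told apart, and the levels by class follow for that reason.

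Shares of cells with a UMI were compared after each cell had been thinned to 1500 UMIs, and the 436 DMSO and 292 DAB cells below that depth were set aside. Cebpe was detected in 5.87% of thinned DMSO cells (5.38 to 6.39) and 9.71% of thinned DAB cells (9.14 to 10.3). Zbtb7a was detected in 9.58% and 11.4%. These were the 2 factors whose share was higher in DAB without overlap of the intervals, also when cells were thinned to 3000 UMIs. Cebpb was found in 72.9% and 71.1% of thinned cells, Cebpd in 11.7% and 12.5%, Cebpa in 2.74% and 2.38%, and Gfi1 in 0.524% and 0.334%. At 3000 UMIs the shares of Cebpa (5.54% in DMSO and 4.25% in DAB) and Cebpb (85.2% and 82.9%) were lower in DAB without overlap of the intervals, and that of Gfi1 turned to 0.782% and 1.006%, with overlap. Without thinning, the shares were 22.3% and 35.8% for Cebpe, 42.0% and 52.8% for Zbtb7a, 92.1% and 93.4% for Cebpb, 39.5% and 47.7% for Cebpd, 14.7% and 14.3% for Cebpa, and 2.36% and 3.67% for Gfi1. B cell-like cells, which are not known for C/EBP expression, were taken as a measure of UMIs from other cells. Whether such UMIs came from free RNA, from undetected doublets or from the cells themselves was not tested. Their thinned shares in DMSO and DAB were 3.10% and 5.20% for Cebpb, 3.10% and 0% for Cebpd, 0% and 1.16% for Cebpe, and 0% in both for Cebpa, and their median cell held 3967 and 4867 UMIs before thinning. For Cebpb, Cebpd and Cebpe the thinned share over all cells was above the B cell-like share in both libraries. For Cebpa the B cell-like intervals reached 2.82% in DMSO and 2.11% in DAB, so its low share over all cells lay inside this limit in DMSO and slightly above it in DAB. Without thinning, B cell-like cells held 0 Cebpa UMIs in both libraries. A bound of 3 counts allows 4.42 CPM in DMSO and 2.89 CPM in DAB, below the 19.2 and 16.7 CPM over all cells.

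**Figure D1:**
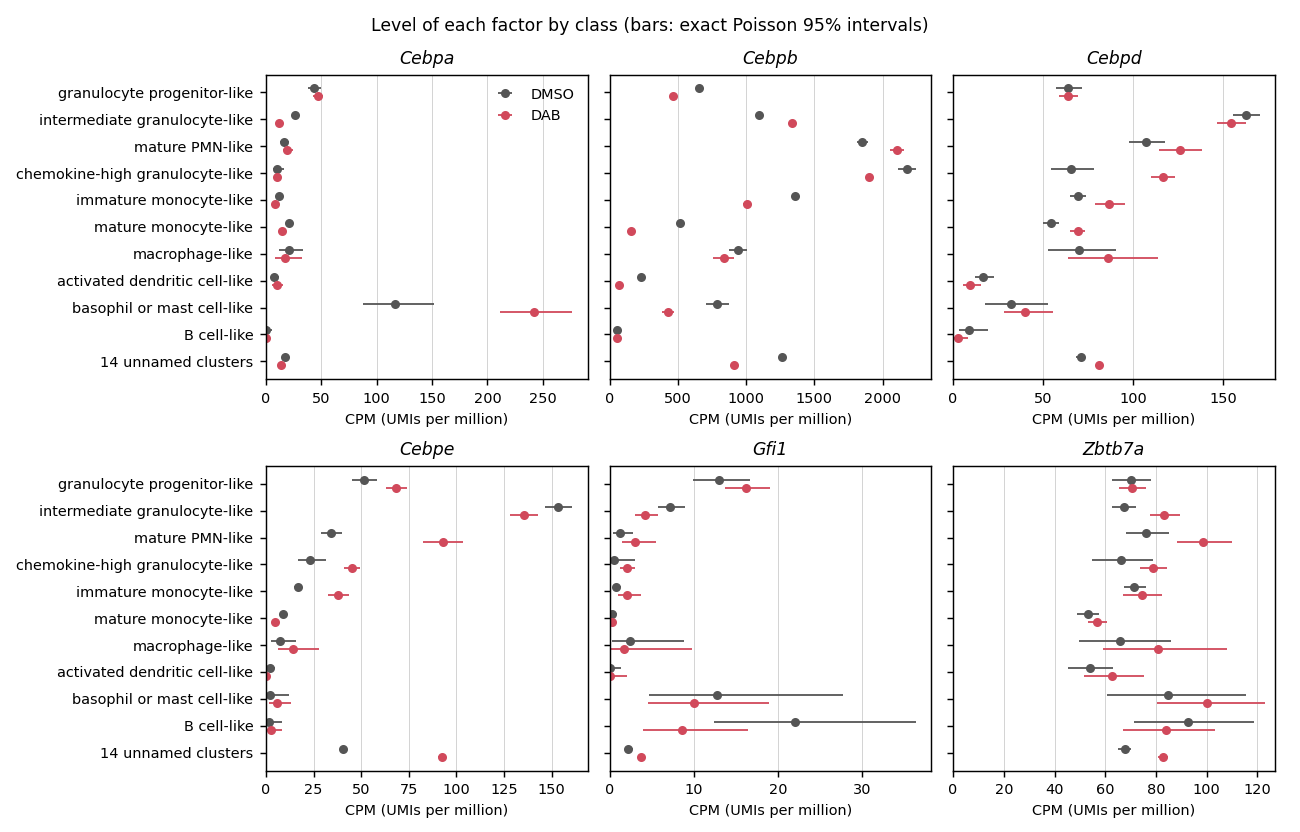
Level of each factor in 10 marker-defined classes and in the 14 unnamed clusters together, in CPM (linear axes that start at 0 and differ between panels); grey points are DMSO, red points DAB, bars exact Poisson 95% intervals. Cebpe reached 154 CPM in intermediate granulocyte-like DMSO cells, Cebpa 242 CPM in basophil or mast cell-like DAB cells, and Zbtb7a stayed between 53.0 and 100.0 CPM.

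Cebpe, the factor of the secondary granule stage, was highest among the 10 classes with 50 cells of each library in intermediate granulocyte-like cells, with 154 CPM (146 to 161) in DMSO and 135 CPM (128 to 143) in DAB. Without alignment of the libraries, granulocyte progenitor-like cells ranked first in both libraries, as they did in DAB at resolution 0.5. The intermediate granulocyte-like class joined cluster G, led by the secondary granule genes Camp, Ltf and Ngp, and cluster B, led by Ly6g and S100a9. In cluster G, the Cebpe level was 246 CPM in DMSO and 267 CPM in DAB (log2 ratio 0.12, -0.01 to 0.25), the highest of 26 clusters in each library. In DAB the interval of cluster G (249 to 287 CPM) overlapped that of the next, unnamed cluster V (221 to 252 CPM). In cluster B the Cebpe level was 40.8 and 78.0 CPM (0.94, 0.70 to 1.17). The class total lay lower in DAB (log2 ratio -0.18, -0.29 to -0.08) although neither of its clusters did, because cluster G held 838 DMSO cells and 199 DAB cells while cluster B held 906 and 737.

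Outside cluster G the Cebpe level was higher in DAB in most granulocyte-like cells. In mature PMN-like cells, defined by Csf3r and Mmp9, Cebpe gave 144 UMIs and 34.1 CPM (28.7 to 40.1) in DMSO and 311 UMIs and 92.7 CPM (82.7 to 104) in DAB, a log2 ratio of 1.44 (1.15 to 1.74). The thinned share of these cells with a UMI was 4.57% (3.35 to 6.07) in DMSO and 13.96% (11.8 to 16.4) in DAB. Chemokine-high granulocyte-like cells, defined by Ccl3 and Cxcl2, gave 23.3 and 44.9 CPM (log2 ratio 0.95, 0.50 to 1.43). Immature monocyte-like cells gave 16.7 and 37.6 CPM (1.17, 0.89 to 1.45). In granulocyte progenitor-like cells, led by Elane and Mpo, the values were 51.6 and 68.4 CPM, within the rule (0.41, 0.19 to 0.62). That ratio was -0.18 without regression of the cell cycle and 0.74, a call of higher, without doublet removal, so no direction is read from it. These 3 higher values, in mature PMN-like, chemokine-high granulocyte-like and immature monocyte-like cells, were called in all 7 alternative settings that rebuilt or rescaled the classes. Their sizes moved, from 0.65 (without alignment) to 1.36 in mature PMN-like cells, from 0.75 to 1.17 in the chemokine-high class, and from 0.61 (without alignment) to 1.94 (resolution 0.5) in immature monocyte-like cells. In settings that rebuilt the classes, a class name did not always cover the same cells, here and for the other factors. Without alignment, the mature PMN-like clusters held 137 and 113 DMSO cells, while a Csf3r-led cluster with 1298 DMSO cells was unnamed.

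Mature monocyte-like cells, defined by MHC class II genes, differed in direction, with a Cebpe level of 8.98 CPM in DMSO and 4.74 CPM in DAB (log2 ratio -0.92, -1.38 to -0.47). At a coarser clustering resolution of 0.5 this ratio turned to 0.66. Cebpe was low in B cell-like cells, with 1.47 CPM (0.04 to 8.20) in DMSO and 2.89 CPM (0.60 to 8.45) in DAB. The mature monocyte-like intervals, 7.24 to 11.0 CPM in DMSO and 3.73 to 5.95 CPM in DAB, overlapped these in both libraries. Activated dendritic cell-like cells gave 2.20 CPM in DMSO and 0 UMIs in DAB, for which a bound of 3 counts allows up to 1.69 CPM. A small eosinophil-like cluster of 27 DAB cells held 243 Cebpe UMIs, or 645 CPM (566 to 731), and its 5 DMSO cells held 4 UMIs, too few to compare.

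**Figure D2:**
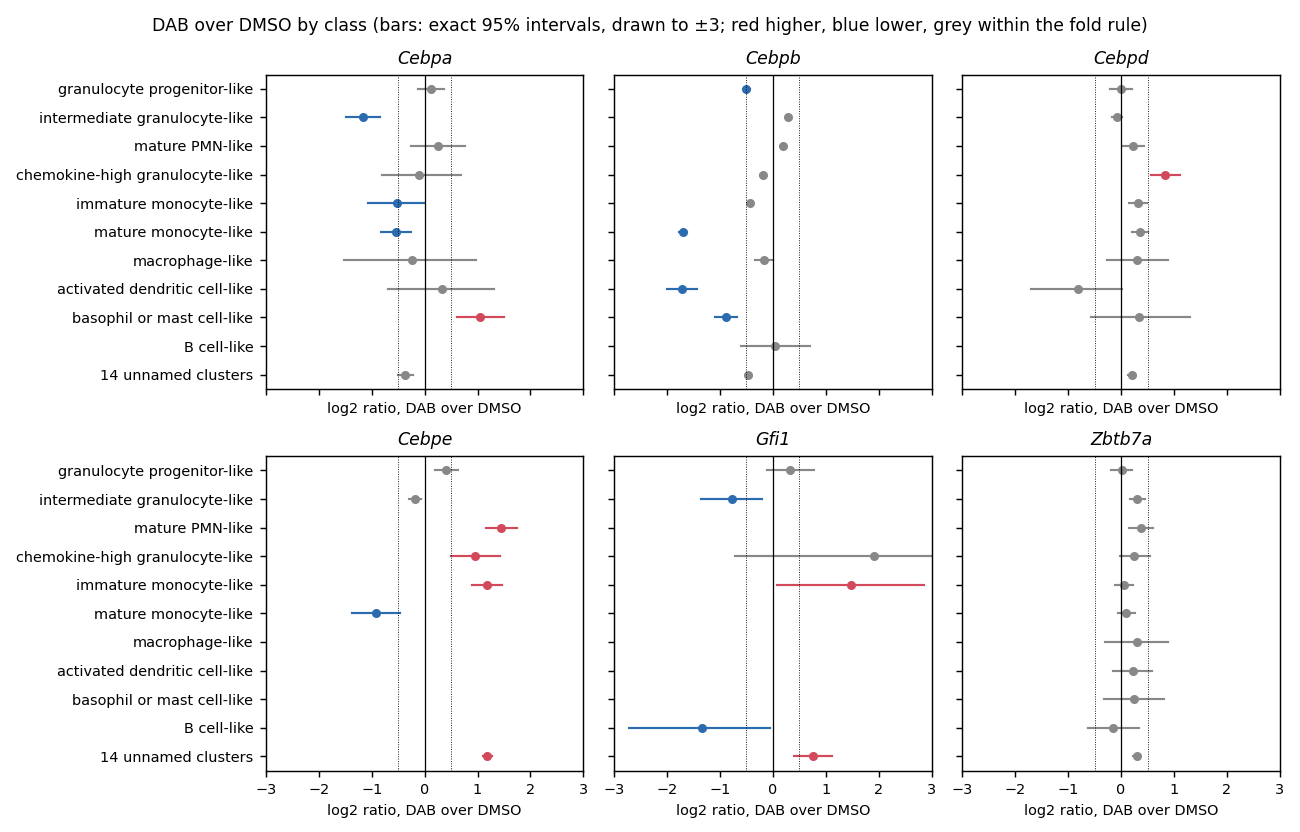
The log2 ratio of DAB over DMSO for each factor in each class with at least 20 UMIs, with exact 95% intervals (drawn to 3 in size); dotted lines mark 0.5 in size, red points were called higher, blue lower and grey neither. Cebpe was called higher in 3 named classes and lower in mature monocyte-like cells, Cebpb was called lower in 4 classes, and Zbtb7a in none.

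Over single clusters, Cebpe could be read in 22 of the 26 clusters with 50 cells of each library and was called higher in 14 and lower in 1. Of 7455 genes read in at least as many clusters, 4.16% were called higher in 14 or more. The 14 comprised 6 named and 8 unnamed clusters, with log2 ratios from 0.55 to 2.06. The highest was that of the chemokine-high granulocyte-like cluster H, where 7 DMSO UMIs gave 12.5 CPM and 116 DAB UMIs gave 52.4 CPM (0.98 to 3.41). The clusters that held the UMIs also differed. Intermediate granulocyte-like cells held 42.8% of all Cebpe UMIs in DMSO and 11.8% in DAB, and unnamed clusters held 38.3% and 70.1%. Unnamed clusters I (led by stefin A genes), O (led by Cpa3 and Il2ra) and V (led by Retnla and Ly6g) together held 11.3% of Cebpe UMIs in DMSO and 39.1% in DAB. In clusters O and V the Cebpe level was high in both libraries, 127 and 152 CPM in O (log2 ratio 0.26, 0.07 to 0.45) and 173 and 236 CPM in V (0.45, 0.19 to 0.72), while in cluster I it was 54.7 and 106 CPM (0.95, 0.61 to 1.32). With every cluster weighted by its pooled size, the Cebpe level was 47.4 CPM in DMSO and 77.4 CPM in DAB, a log2 ratio of 0.71 against 0.75 for the plain sum.

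**Figure D3:**
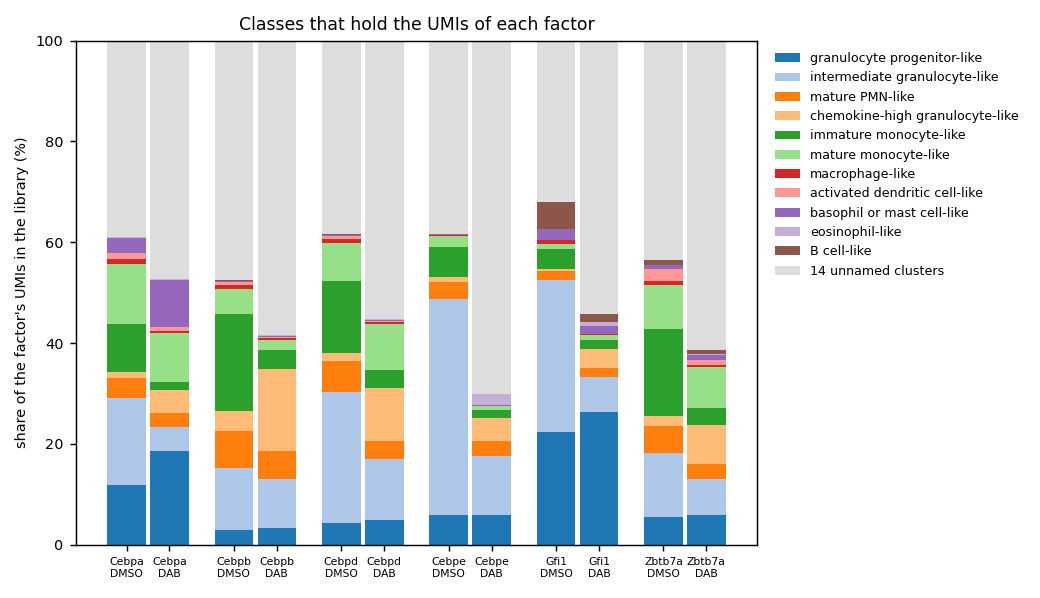
Share of each factor's UMIs (percent of the library's UMIs of that gene) held by each class, DMSO and DAB side by side for each factor. Intermediate granulocyte-like cells held 42.8% of Cebpe UMIs in DMSO and 11.8% in DAB, and granulocyte progenitor-like cells held 22.3% and 26.3% of Gfi1 UMIs.

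The secondary granule genes, which C/EBPε is known to drive, were lower where they passed the rule over all cells. Of the 8 genes of this list, 0 were higher and 4 lower, and the median log2 ratio was -0.92. Camp, an antimicrobial peptide precursor, gave 566 CPM in DMSO and 59.9 CPM in DAB (log2 ratio -3.24). Ngp, a granule protein, gave 2965 and 866 CPM (-1.78), lactoferrin (Ltf) gave 342 and 101 CPM (-1.76) and Chil3, a chitinase-like protein, gave 4005 and 1499 CPM (-1.42). Lcn2, Mmp8, Cd177 and Ly6g stayed within the rule, with log2 ratios from -0.43 to 0.04. The number of cells in cluster G, where these genes lead, was also lower in DAB, and its part in these sums was not tested beyond the values within the cluster. In cluster G itself, Camp (7462 and 2413 CPM, log2 ratio -1.63) and Chil3 (9928 and 4959 CPM, -1.001) were lower, Mmp8, a collagenase, was higher (227 and 408 CPM, 0.85), and the other 5 genes stayed within the rule. All genes of the list but Chil3 were also markers that named the intermediate granulocyte-like class, and they were not kept out of the clustering. Values within cluster G therefore depend in part on how its cells were grouped, and no lack of change is read from them. The summed level of the 8 genes was lower in DAB in 23 of the 26 clusters, and in 13 of the 14 clusters in which Cebpe was called higher. In those 14, the log2 ratio of the sum ranged from -1.04 to 0.19. As 13 of 14 is close to 23 of 26, the lower sum was not particular to clusters with higher Cebpe. The 23 also included B cell-like cluster W (184 and 73.6 CPM). The share of all genes lower in as many clusters was not worked out. The sum does not stand for each gene, and in many clusters other listed genes held most of it. In cluster J, Ltf, Camp and Ngp gave 63.2, 36.8 and 659 CPM in DMSO, of a sum of 26097 CPM. The count of 23 therefore does not describe Ltf, Camp and Ngp by themselves. In cluster V the sum was lower in DAB (6422 and 5352 CPM), while Ltf (37.6 and 62.5 CPM), Camp (11.3 and 53.2 CPM) and Ngp (321 and 967 CPM) were higher.

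**Figure D4:**
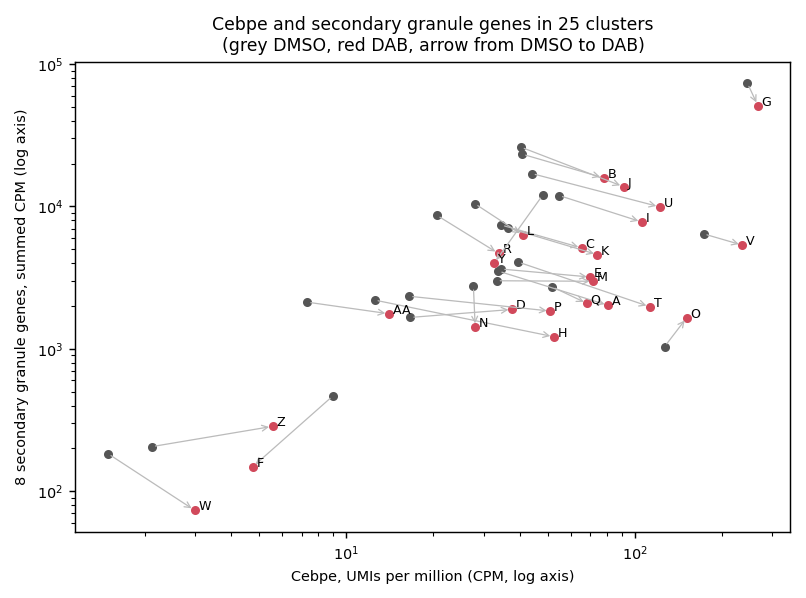
Cebpe level (horizontal, CPM, log axis) against the summed level of 8 secondary granule genes (vertical, CPM, log axis) in 25 clusters with Cebpe UMIs in both libraries; each arrow runs from a cluster's DMSO value (grey) to its DAB value (red, lettered). Most arrows run to the right and down, and cluster G moved from 246 to 267 CPM of Cebpe.

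Within single cells, Cebpe and these granule genes were found together in both libraries. After thinning, 47.8% (43.4 to 52.3) of the 504 DMSO cells with a Cebpe UMI held at least 3 UMIs of Camp, Ltf and Ngp, against 15.7% of cells without one. In DAB this applied to 14.3% (12.2 to 16.6) of 987 cells with a Cebpe UMI and to 5.91% of those without. For Cebpd the DMSO shares were 29.8% of 1006 cells with a UMI and 15.9% without, and in DAB 9.06% and 6.39%. Cells with a Cebpb UMI held the granule UMIs less often than cells without one in DMSO, 14.8% and 24.8%, whereas in DAB the shares were 6.93% and 6.23% with overlapping intervals.

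Cebpa, the factor of early progenitors, was highest in basophil or mast cell-like cells and next in granulocyte progenitor-like cells in both libraries, and neither step in this order overlapped in its interval. Basophil or mast cell-like cells, marked by Mcpt8 and Prss34, gave 117 CPM (88.0 to 152; 55 UMIs) in DMSO and 242 CPM (211 to 277; 218 UMIs) in DAB, a log2 ratio of 1.05 (0.62 to 1.51). Granulocyte progenitor-like cells gave 43.6 and 47.2 CPM (0.11, -0.13 to 0.36), a ratio that was called higher without alignment (0.59). From the intermediate granulocyte-like class down, the intervals of most neighboring classes overlapped. In intermediate granulocyte-like cells the Cebpa level was 26.4 CPM (23.5 to 29.5) in DMSO and 11.8 CPM (9.73 to 14.3) in DAB, a log2 ratio of -1.16 (-1.48 to -0.84). Both clusters of this class showed it, B with 21.5 and 10.3 CPM (-1.06) and G with 30.4 and 15.3 CPM (-0.99). It was called lower in all 7 alternative settings. Immature monocyte-like cells gave 11.5 and 8.01 CPM (-0.52, -1.06 to -0.01), and this call was lost when scaled by the median of ratios (-0.45), while the ratio was -1.17 without alignment. Mature monocyte-like cells gave 20.4 and 14.04 CPM (-0.54, -0.82 to -0.26), a ratio that turned to 0.14 without alignment and to 0.044 at resolution 0.5 and lost its call at resolution 1.5 (-0.26). B cell-like cells held 0 Cebpa UMIs in either library, for which a bound of 3 counts allows up to 4.42 CPM in DMSO and 2.89 CPM in DAB. Over 25 clusters read, Cebpa was called higher in 1 and lower in 5, and 20.4% of 5704 genes read in at least 25 clusters were called lower in 5 or more.

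Of the 8 genes listed as C/EBPα and primary granule targets, 2 were higher and 4 lower over all cells, with a median log2 ratio of -0.55. Csf3r, the G-CSF receptor, gave 60.8 CPM in DMSO and 29.8 CPM in DAB (-1.03), the serine proteases Elane and Prtn3 gave 98.2 and 54.1 CPM (-0.86) and 214 and 120 CPM (-0.84), and the protease cathepsin G (Ctsg) gave 22.4 and 43.1 CPM (0.95). Ctsg was also among the leading genes of basophil or mast cell-like cluster Z, which held 71 DMSO and 110 DAB cells. The part of cluster Z in the Ctsg sums was not tested. The summed level of the 8 genes was higher in DAB in 18 of 26 clusters. Lyz2 held most UMIs of this list over all cells (1579 CPM in DMSO and 2134 CPM in DAB, 0.43). The count therefore does not describe the primary granule genes by themselves. In granulocyte progenitor-like cluster Q the sum was lower in DAB (3669 and 2350 CPM). Elane (1311 and 586 CPM) and Mpo (193 and 96.5 CPM) were lower there too, while Csf3r was not (12.2 and 14.2 CPM). Elane, Ctsg, Prtn3 and Mpo led cluster Q and were not kept out of the clustering. At a finer clustering resolution, the granulocyte progenitor-like class held a cluster led by Elane and Mpo (72 DMSO and 85 DAB cells). Its other cluster was led by H2-Q10, Myl10 and Thy1 (191 and 245 cells). Values within cluster Q therefore depend in part on how its cells were grouped, and no change within progenitor-like cells is read from them.

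Cebpb, which is known for inflammatory and emergency granulopoiesis, was read in all 10 classes. It was highest in chemokine-high granulocyte-like cells in DMSO and in mature PMN-like cells in DAB, although at resolution 0.5 the latter ranked first in both. Chemokine-high granulocyte-like cells gave 2177 CPM in DMSO and 1903 CPM in DAB (log2 ratio -0.19), and mature PMN-like cells gave 1852 and 2106 CPM (0.19). Intermediate granulocyte-like cells gave 1091 and 1335 CPM (0.29), so in these 3 granulocyte-like classes the ratio stayed within the rule, although it was called higher in the last without regression (0.61). It was lower in the mature monocyte-like class, with 5258 UMIs and 513 CPM (500 to 528) in DMSO and 2502 UMIs and 158 CPM (152 to 165) in DAB, a log2 ratio of -1.70 (-1.77 to -1.63). Activated dendritic cell-like cells, marked by Ccr7 and Fscn1, gave 230 and 70.0 CPM (-1.72, -2.01 to -1.44), and basophil or mast cell-like cells gave 788 and 427 CPM (-0.88, -1.09 to -0.67). These 3 lower values were called in all 7 alternative settings, with sizes down to -1.10 in mature monocyte-like cells (without alignment), -0.88 in activated dendritic cell-like cells (without doublet removal) and -0.69 in basophil or mast cell-like cells (without doublet removal). In granulocyte progenitor-like cells the values were 655 and 462 CPM, at the edge of the rule (-0.50), and this call was made in 2 of 7 alternative settings. B cell-like cells gave 51.5 and 53.0 CPM. Of their 35 DMSO UMIs, 9 came from the 6 cells of cluster AD, and cluster W alone gave 38.8 and 54.7 CPM. In activated dendritic cell-like DAB cells, the 70.0 CPM (58.2 to 83.5) overlapped that of B cell-like cells (39.9 to 69.0). By cluster, Cebpb was called lower in 9 of 26 and higher in 1, cluster G (633 and 916 CPM, 0.53), and 9.60% of 4626 genes read in all 26 clusters were called lower in 9 or more. In 4 clusters Cebpe was called higher and Cebpb lower, out of 14 with higher Cebpe and 9 with lower Cebpb. This overlap was not set against that of other genes, so no opposed pattern is read from it.

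Cebpd, an acute phase partner of C/EBPβ, was highest in intermediate granulocyte-like cells, with 163 CPM (155 to 170) in DMSO and 154 CPM (147 to 163) in DAB (log2 ratio -0.07), although without alignment mature PMN-like cells ranked first in DAB. Chemokine-high granulocyte-like cells gave 121 UMIs and 65.6 CPM (54.4 to 78.4) in DMSO and 1258 UMIs and 116 CPM (110 to 123) in DAB, a log2 ratio of 0.83 (0.56 to 1.11). In the main setting this was the 1 class of 9 read in which Cebpd passed the rule. The call was kept in all 7 alternative settings, but some of these also called Cebpd in other classes. It was higher in mature PMN-like cells without alignment (0.54) and in mature monocyte-like cells at resolution 1.5 (0.59). In activated dendritic cell-like cells it was lower at resolution 0.5 (-1.26) and without genes differing between the libraries (-1.003). Clusters H, L and S made up the chemokine-high class, and S held 16 DMSO and 386 DAB cells, too few in DMSO to compare. Within H, Cebpd gave 66.3 and 87.3 CPM (0.40, -0.12 to 0.95) and within L 68.9 and 119.4 CPM (0.79, 0.45 to 1.16). By cluster, Cebpd was called higher in 5 of 25 and lower in 2, and 20.2% of 5704 genes read in at least 25 clusters were called higher in 5 or more.

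Of 11 inflammatory genes listed as C/EBPβ and C/EBPδ targets, 10 could be read over all cells, of which 1 was higher and 7 lower (median log2 ratio -0.92). Nos2, the inducible nitric oxide synthase, gave 111 CPM in DMSO and 10.8 CPM in DAB (-3.36), the acute phase gene Saa3 gave 38.6 and 5.19 CPM (-2.89), haptoglobin (Hp) gave 180 and 37.8 CPM (-2.26) and the pentraxin Ptx3 gave 76.6 and 28.4 CPM (-1.43). Nos2 and Arg1 were among the leading genes of immature monocyte-like cluster D, which held 905 DMSO and 337 DAB cells. The part of this different cell number in these sums was not tested. Cebpb and Cebpd themselves stayed within the rule over all cells. By cluster, Cebpb was called lower in 9 of 26 and higher in 1, and 9.60% of 4626 genes were called lower in 9 or more. In cluster D, Cebpb stayed within the rule (1359 and 1006 CPM, -0.43). A link between Cebpb and the listed genes was not tested.

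Gfi1, the repressor of the monocyte program, was sparse, and 278 DMSO and 566 DAB UMIs limit what can be read. Granulocyte progenitor-like cells gave 62 UMIs and 13.01 CPM (9.97 to 16.7) in DMSO and 149 UMIs and 16.3 CPM (13.8 to 19.1) in DAB (log2 ratio 0.32, -0.11 to 0.77). This ratio was called higher in 4 of 7 alternative settings, with values of 0.70 without regression, 0.74 without genes differing between the libraries, 0.83 at resolution 0.5 and 1.06 without alignment. These cells, 2.56% of DMSO and 2.87% of DAB cells, held 22.3% and 26.3% of all Gfi1 UMIs. B cell-like cells also held Gfi1, with 15 UMIs and 22.1 CPM (12.4 to 36.4) in DMSO and 9 UMIs and 8.67 CPM (3.96 to 16.5) in DAB (-1.35, -2.72 to -0.06), a call lost when clustered without genes differing between the libraries (-1.09). They ranked first in DMSO, with an interval that overlapped that of granulocyte progenitor-like cells. The latter ranked first there without alignment, at resolution 0.5 and without regression, and in DAB throughout. The thinned share of B cell-like cells with a Gfi1 UMI was 5.43% in DMSO and 1.16% in DAB. Intermediate granulocyte-like cells gave 84 UMIs and 7.20 CPM in DMSO and 39 UMIs and 4.20 CPM in DAB (-0.78, -1.37 to -0.21), with values from -1.44 to -0.70 over the 7 alternatives. Within the clusters of this class, the values were 10.9 and 9.24 CPM in G (-0.24) and 2.67 and 2.01 CPM in B (-0.41), both within the rule. Immature monocyte-like cells were called higher (1.47, 0.08 to 2.85) from 11 UMIs in DMSO and 10 in DAB, a call lost without alignment (0.37) and without doublet removal (0.77). Activated dendritic cell-like cells held 0 UMIs, for which a bound of 3 counts allows up to 1.10 CPM in DMSO and 1.69 CPM in DAB. Of 12 clusters with enough UMIs, Gfi1 was called higher in 2 and lower in 1. The share of all genes called in as many clusters was not worked out for Gfi1, so nothing is read from this count.

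Of 9 genes listed as repressed by GFI1, 2 were higher and 2 lower over all cells, with a median log2 ratio of 0.03. The closest relative of GFI1, Gfi1b, gave 0.958 CPM in DMSO and 2.52 CPM in DAB (1.39), and Csf1, the macrophage growth factor, gave 68.5 and 101 CPM (0.56). Irf8, a monocyte and dendritic cell factor, gave 52.7 and 24.7 CPM (-1.10), and Egr2, a macrophage factor, gave 23.0 and 14.9 CPM (-0.63). Among 11 corepressor genes, 2 were higher and 0 lower, Hdac1 with 44.2 and 71.0 CPM (0.69) and Mbd3 with 41.6 and 59.5 CPM (0.52), and the median was 0.10.

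Zbtb7a was the most evenly spread of the 6 by the ratio of its highest to its lowest class, from 53.0 CPM in mature monocyte-like to 92.7 CPM in B cell-like DMSO cells and from 56.7 CPM in mature monocyte-like to 100.0 CPM in basophil or mast cell-like DAB cells, although mature PMN-like cells ranked first in DAB in 5 of 7 alternative settings. It passed the rule in 0 of the 10 classes, with log2 ratios from -0.15 in B cell-like to 0.37 in mature PMN-like cells, where it gave 76.2 and 98.6 CPM. By cluster, the ratio was above 0 in 24 of 26, with a median of 0.22 and a call of higher in 3 (I, O and V) and lower in 0. The share of all genes above 0 in as many clusters was not worked out. All clusters come from the same 2 libraries, so no common direction is read from this count. Of 4626 genes read in all 26 clusters, 31.9% were called higher in 3 or more. Of 7 genes listed as ZBTB7A targets, 1 was higher and 2 lower (median 0.03), and the glycolytic genes Slc2a3, Pfkp and Pkm stayed within the rule with log2 ratios of -0.19, 0.18 and 0.17. Cdkn2a, a cell cycle inhibitor, gave 7.61 and 3.44 CPM (-1.15), Rb1, the retinoblastoma gene, gave 81.7 and 42.3 CPM (-0.95) and Bcl11a, a lymphoid and erythroid factor, gave 3.84 and 5.47 CPM (0.51).

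Read class by class, 49 values of the 6 factors had enough UMIs and 16 passed the rule. The factors passed in 1 of 6 values in granulocyte progenitor-like cells, where 31.4% of all genes passed in either direction, and in 2 of 6 in intermediate granulocyte-like cells (35.2% of genes). The counts were 1 of 5 in mature PMN-like cells (32.3%), 2 of 6 in chemokine-high granulocyte-like cells (20.1%), 3 of 6 in immature monocyte-like cells (27.8%) and 3 of 5 in mature monocyte-like cells (34.4%). In macrophage-like cells 0 of 4 passed (16.2%), in activated dendritic cell-like cells 1 of 4 (22.6%), in basophil or mast cell-like cells 2 of 4 (20.4%) and in B cell-like cells 1 of 3 (23.2%). With so few factors per class, these counts do not set the factors apart from the rest of the genes.

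Other family members and fate factors were read from lists over all cells. Among 9 further C/EBP relatives and dimer partners, 2 were higher and 4 lower (median log2 ratio 0.26). Atf4, an activating transcription factor of the integrated stress response that can pair with C/EBP proteins, gave 148 CPM in DMSO and 263 CPM in DAB (0.83), and Batf3, a dendritic cell factor, gave 38.1 and 12.3 CPM (-1.64). The PAR zipper factors Dbp (5.74 and 2.30 CPM, -1.32) and Hlf (2.09 and 1.04 CPM, -1.01) were lower. Of 16 granulocyte and monocyte fate factors, 4 were higher and 4 lower (median 0.19). Myb, an early progenitor factor, gave 3.95 and 10.8 CPM (1.46), Lef1 gave 3.16 and 7.11 CPM (1.17), and Klf4, a monocyte factor, gave 11.3 and 4.50 CPM (-1.32).

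The genes with the most similar pattern to each factor were found by Pearson correlation of log2(CPM + 10) over the 26 clusters in both libraries, 52 points that share libraries and depth, among 12116 genes. They are a description only. Cebpa was closest to Ctsg (r = 0.80), Sytl3 (0.79) and Osbpl5 (0.79), and Cebpb to F10 (0.94), Plin2 (0.92) and Prdx5 (0.91). Cebpd was closest to Sqor (0.88), Prdx5 (0.88) and Pgd (0.88). Cebpe was closest to 9830107B12Rik (0.80), the secondary granule gene Lcn2 (0.79) and A530064D06Rik (0.78), Gfi1 to Cbx6 (0.82), Slc17a9 (0.79) and Myb (0.78), and Zbtb7a to Map3k5 (0.76), Mettl25 (0.74) and Ikzf1 (0.73).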

How the data were processed

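The data were 10x Genomics 5′ v2 libraries, 1 per condition. The deposited values are raw UMI counts per gene and barcode, which the authors made with Cell Ranger 7.0.0 on mm10; their Seurat 4.3.0 (R 4.1.2) objects were not used here. The files held 9855 DMSO barcodes (106792967 UMIs) and 11631 DAB barcodes (165506902 UMIs). Barcodes over 10% mitochondrial UMIs (55 and 89) and the highest doublet scores (777 and 1082, at a rate that grew with cell number) were removed, and a limit of 4 median absolute deviations removed none. The score called 48.5% of 400 planted doublets, so others remain.

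Pearson residuals (theta 100) of 3000 variable genes without the 6 factors, with cell cycle and mitochondrial scores regressed out, gave 40 components, aligned by mutual nearest neighbors (k = 20) and clustered by Leiden at resolution 0.9 (seed 1). Clusters were named from 15 marker lists, 11 of which named one. Each cluster was tried for the class whose markers had the highest mean log2 fold (10 CPM added). To be named, it had to raise 3 or more of these markers, and the greater part of those found, by a log2 fold of 1. At least 1 had to be among its 10 leading genes, and no other class could have more markers among them. For granulocyte names, S100a8 or Csf3r had to be raised too. This naming rule was chosen with the clusters in view.

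Ratios carry exact conditional intervals, levels exact Poisson and shares exact (Clopper-Pearson) intervals, all at 95%; UMIs of 1 library are not biological replicates, so no p-value was computed. A zero count was limited at 3 counts. Scripts were tested on simulated data. The factors and gene lists were chosen with earlier results of these data known. Named genes were the 6 factors, up to 4 genes per list with the largest log2 ratio past the rule, and the 3 most similar genes per factor; other genes named beside a count were chosen after their values were seen. Alternatives were other filters, scalings, resolutions and thinning depths. Python 3.11.15, numpy 2.4.6, scipy 1.17.1, pandas 2.3.3, scikit-learn 1.9.0, igraph 0.11.9, leidenalg 0.10.2 and matplotlib 3.10.9 were used.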

Additional observations from a re-analysis of the deposited data

Results flagged for a closer look

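Some factors were higher in DAB in 1 class and lower in another. The difference between classes was not tested in any of these cases, since each class has 1 library per condition. Cebpa had a log2 ratio of 1.05 in basophil or mast cell-like cells, against -1.16 in intermediate granulocyte-like, -0.52 in immature monocyte-like and -0.54 in mature monocyte-like cells. Cebpe had log2 ratios of 1.44 in mature PMN-like, 0.95 in chemokine-high granulocyte-like and 1.17 in immature monocyte-like cells, against -0.92 in mature monocyte-like cells. The mature monocyte-like levels of Cebpe overlapped those of B cell-like cells in their intervals in both libraries. Gfi1 had a log2 ratio of 1.47 in immature monocyte-like cells, on 11 DMSO and 10 DAB UMIs and with the call lost in 2 of 6 alternative settings, against -0.78 in intermediate granulocyte-like and -1.35 in B cell-like cells. Within the clusters of the intermediate granulocyte-like class, Gfi1 stayed within the rule (-0.24 in G and -0.41 in B). The B cell-like value rests on 15 DMSO and 9 DAB UMIs and kept its call in 6 of 7 alternative settings.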

How the results depend on the processing

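No paired analysis was possible because each condition has 1 library and no test was made. Over all cells, Cebpe kept its call under every alternative run, with a log2 ratio of 0.56 as a mean over cells. Taken as a mean over cells, the log2 ratio was -0.033 for Cebpb, 0.057 for Cebpd and 0.010 for Gfi1, and with clusters weighted by their pooled size it was -0.22 for Cebpb, 0.23 for Cebpd and 0.18 for Gfi1. A minimum of 20 CPM in place of 200 UMIs left 678 genes higher and 668 lower, against 1606 and 1776. Without thinning, 5 factors had a higher share of cells in DAB, against 2. By class, the ratio in mature monocyte-like cells reversed for Cebpa without alignment (0.14) and at resolution 0.5 (0.044), and for Cebpe at resolution 0.5 (0.66). The cause was not tested. Of the class values that each alternative could give, between 31 and 46 stayed within their main interval and between 3 and 15 moved. Gfi1, with 278 and 566 UMIs, could be read in 12 of 26 clusters.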
